A study of Rattus norvegicus with 12 samples.

Results

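Serpina3 and its neighbours are a set of clade A serpin genes of rat liver, read here by 8 of the 41012 distinct probes of an oligonucleotide array. The set took in every probe that is not a control and whose gene name is Serpina3c, Spin2a, Serpina5 or Serpina1, or starts with Serpina3 or Spin2, and it covers 6 genes. They are Spin2b, Spin2a (3 probes), Serpina3n, Serpina3m, Serpina5 and Serpina1, each probe spotted 1 time. No probe carries the name Serpina3c, but the transcript of the Spin2b probe is listed by RefSeq (GRCr8) under Serpina3c, the name used from here on. RefSeq lists Spin2a as a synonym of Serpina3l on chromosome 6, while the symbols Spin2a and Spin2b now belong to unrelated genes on chromosome X. The coordinates in the array files place all 8 probes on chromosome 6, so the probes of the array's Spin2a read the serpin. The 3 Spin2a probes are called upstream, middle and downstream by their order on the chromosome. The middle and downstream probes start 0.021 kb apart and overlap in those coordinates, so they are not independent readings.

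All RNA came from livers of Fischer 344 rats aged 12 weeks. The groups were intact (untreated) males, intact females, males and females without a pituitary (hypophysectomised), and hypophysectomised males given growth hormone (GH) by 1 or 2 injections. Each pool of the first 4 groups held 3 to 4 livers. The 1-injection pool held 4 livers from rats killed at 30, 60 or 90 min, and the 2-injection pool held 5 livers from rats injected at an interval of 3 or 4 h. There were 6 direct comparisons, each on 2 arrays with the dyes swapped (12 arrays in all). Per the design text, the arrays of a pair carried different pools of the untreated and hypophysectomised rats but the same single GH pool, so no GH value has a second animal pool behind it. Values below are log2 ratios, with the RNA named first on top, fitted over both arrays with limma and given ± SE (n = 2 arrays), and a probe was called at a Benjamini-Hochberg adjusted p under 0.05. All 8 probes were well above background in all 24 readings (2 RNAs on each of 12 arrays), and all were tested in every comparison. In whole liver RNA, fewer cells of a type and less RNA per cell cannot be told apart.

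Serpins are proteins that trap a protease by offering it a reactive loop as bait. Rodents carry an expanded Serpina3 group beside the gene of alpha-1-antitrypsin, mostly secreted by hepatocytes. GH binds its receptor on hepatocytes and acts through the kinase JAK2 and the transcription factor STAT5, which binds DNA at palindromes of the form TTCNNNGAA, and rat Spin2a is a classic target of this route. Removal of the pituitary takes away GH along with the thyroid, adrenal and gonadal drive, so it is not a loss of GH alone.

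The promoters of 3 members of the Serpina3 group are shown because they are close relatives whose transcripts behaved differently in the comparisons below. No promoter sequence of Serpina3c was at hand, so the motif was not looked for there. Each run is the 250 bases before the RefSeq gene start (GRCr8), 5′ to 3′ on the gene's strand. The windows are chr6:129062956-129063205 (+) for Serpina3l, which is the array's Spin2a, chr6:129088142-129088391 (+) for Serpina3n and chr6:128836840-128837089 (-) for Serpina3m. Capitals mark the TTCNNNGAA match in the first 2 and the stretch of Serpina3m that aligns with the match of Serpina3n.
Serpina3l: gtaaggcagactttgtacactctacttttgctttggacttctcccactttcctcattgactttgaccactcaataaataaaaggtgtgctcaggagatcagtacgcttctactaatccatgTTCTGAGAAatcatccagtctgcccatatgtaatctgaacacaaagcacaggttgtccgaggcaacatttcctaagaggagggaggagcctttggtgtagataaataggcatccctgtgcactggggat
Serpina3n: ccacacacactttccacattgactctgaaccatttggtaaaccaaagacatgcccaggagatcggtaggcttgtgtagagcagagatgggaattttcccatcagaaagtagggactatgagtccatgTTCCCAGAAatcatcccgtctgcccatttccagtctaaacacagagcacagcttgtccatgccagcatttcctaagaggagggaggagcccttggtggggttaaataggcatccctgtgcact
Serpina3m: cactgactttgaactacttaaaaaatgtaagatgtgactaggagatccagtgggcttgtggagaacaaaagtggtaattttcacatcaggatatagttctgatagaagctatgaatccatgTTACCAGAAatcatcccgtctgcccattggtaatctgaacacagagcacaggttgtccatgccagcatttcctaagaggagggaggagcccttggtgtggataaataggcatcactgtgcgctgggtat

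Over the bases that could be aligned, the Serpina3l and Serpina3n windows were 81.2% identical (168 of 207 bases) and the Serpina3n and Serpina3m windows 83.3% identical (195 of 234). The match of Serpina3l is TTCTGAGAA, starting 129 bases before the gene start, and that of Serpina3n is TTCCCAGAA, starting 123 bases before it. The aligned stretch of Serpina3m, TTACCAGAA, differs from that of Serpina3n by the substitution C3A, counted from 1 at the 5′ end of the 9 bases with the base of Serpina3n first. The windows of Serpina5 and Serpina1 held no match. The motif reads the same on both strands, and 7.67% of all 33469 promoter windows of this length held it. A match is a run of letters, and binding was not measured here.

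Without the pituitary, Serpina3c and Spin2a fell further than any other member, in both sexes. Serpina3c encodes the kallikrein-binding protein, an inhibitor of tissue kallikreins. In males the 2 arrays gave ratios of hypophysectomised to intact RNA of -7.94 and -6.05, and the fitted ratio was -6.99 ± 0.32, a 127-fold fall (adjusted p = 4.59e-06). In females the arrays gave -7.83 and -5.62, fitted at -6.72 ± 0.32, a 106-fold fall (adjusted p = 5.21e-06). Both arrays of both sexes lay far below 0, with the first array lower by about 2 log2 units in each sex.

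The 3 Spin2a probes gave the same direction but not the same size. In males the upstream probe read -4.97 and -3.14 (fitted -4.06 ± 0.46, adjusted p = 0.000375). The middle probe read -6.23 and -4.23 (-5.23 ± 0.49, adjusted p = 0.000146). The downstream probe read -6.66 and -4.83 (-5.74 ± 0.48, adjusted p = 9.34e-05). In females the fitted ratios were -3.98 ± 0.46, -5.16 ± 0.49 and -5.55 ± 0.48, in the same order. In males 5 of the 8 probes were called lower (background 18.5% of 25984 tested probes) and 1 higher (background 19.0%). In females 4 were called lower (background 18.5% of 24320) and 3 higher (background 17.9%). With the brightest probe of each gene, 3 of 6 genes were lower and 1 higher in males, and 2 lower and 3 higher in females.

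**Figure D1:**
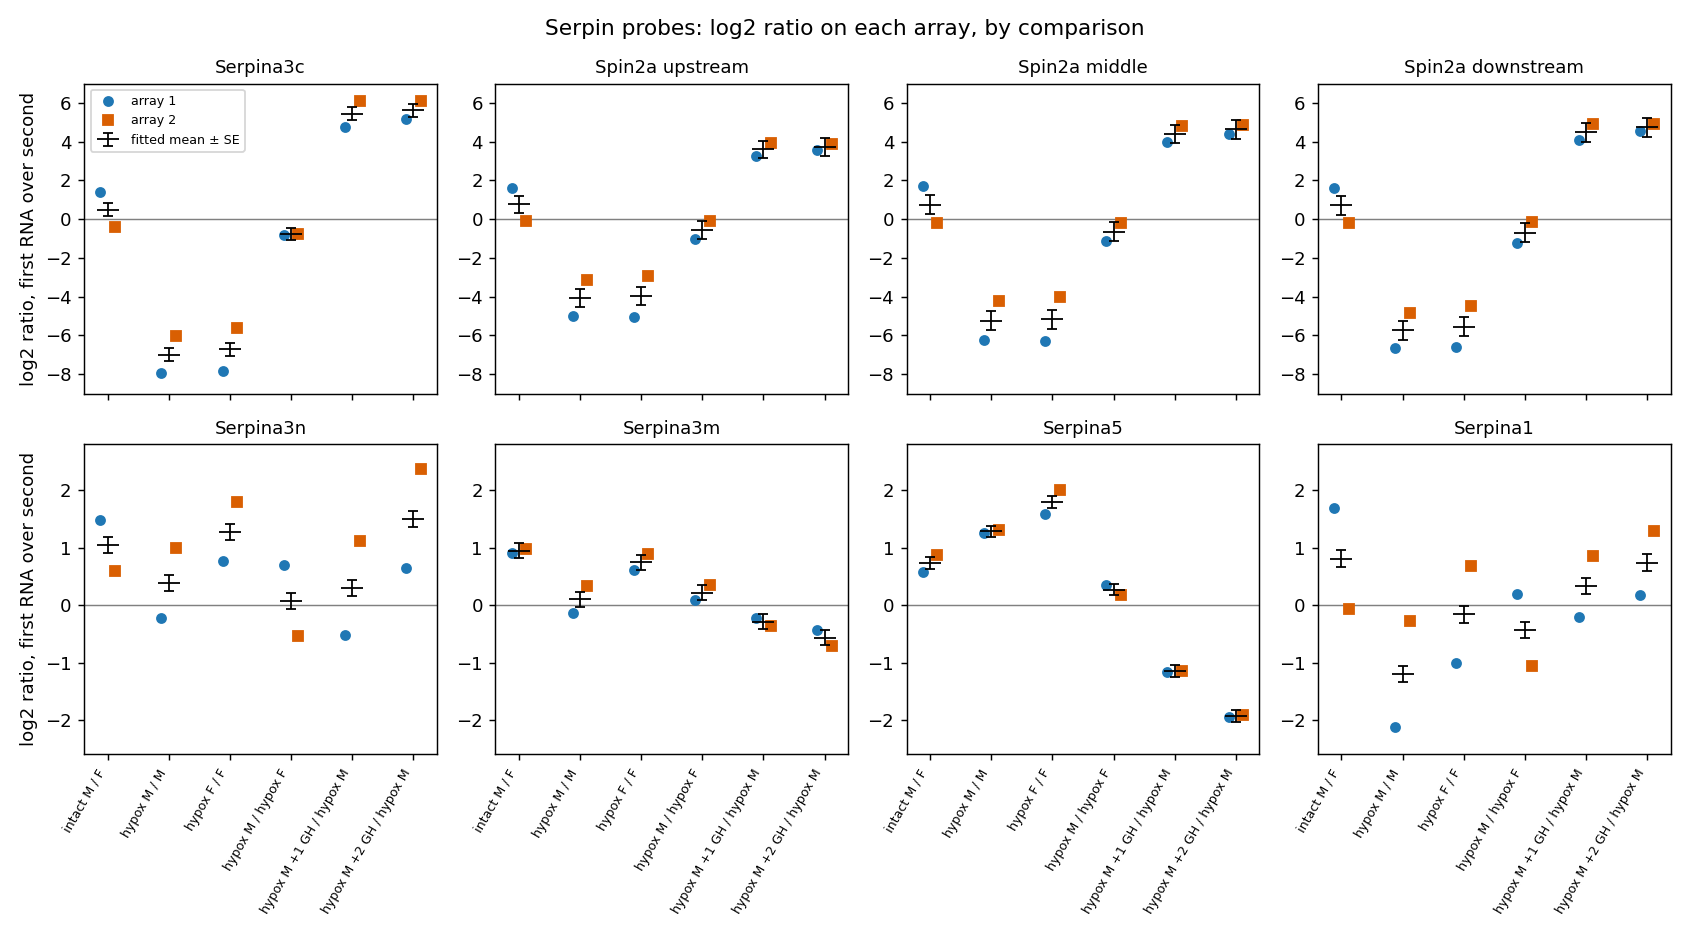
Log2 ratio (first RNA over second) of each of the 8 probes on each array, by comparison. Circles and squares are the first and second array, and bars are the fitted mean ± SE. The 4 upper panels (Serpina3c and Spin2a, axis -9 to 7) drop in both hypophysectomy comparisons and rise with GH, and the lower panels (axis -2.6 to 2.8) span far smaller ratios, with the 2 arrays of Serpina3n and Serpina1 apart.

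The size of that fall depended on which RNA shared the array. Each array reads its 2 RNAs in separate colours, so the level of an RNA, as log2 intensity after normalization, can be followed from array to array. Hypophysectomised male RNA was hybridised beside intact male RNA, beside either GH-treated RNA and beside hypophysectomised female RNA. For the upstream Spin2a probe its level was 12.65 and 15.16 beside intact male RNA, but 7.10 and 6.63 beside hypophysectomised female RNA. The mean shift was 7.04 log2 units, the largest of 29007 probes. The middle probe shifted by 5.53 (rank 3), the downstream probe by 5.50 (rank 4) and Serpina3c by 2.02 (rank 18). Beside GH-treated RNA the upstream probe lay between, at 10.56 and 9.73 with the 1-injection pool and 10.89 and 10.35 with the 2-injection pool.

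The same was seen in females. The level of hypophysectomised female RNA beside intact female RNA exceeded its level beside hypophysectomised male RNA by 6.10, 4.56 and 4.49 at the upstream, middle and downstream Spin2a probes, and by 1.24 for Serpina3c. Over all probes the median shift was -0.01 in each sex, and 39 (males) and 43 (females) of these probes moved by more than 1 either way. Serpina5, Serpina3m, Serpina3n and Serpina1 moved by 0.00, 0.04, 0.11 and -0.09 in males and by 0.01, -0.10, 0.45 and -0.18 in females. Of 24 probes with a direct ratio below -4 in males, 18 had a shift above 1, and 4 of the 24 are members.

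The shift was already in the intensities before background correction. At the upstream Spin2a probe hypophysectomised male RNA gave a mean intensity of 4940 in the green and 65048 in the red channel beside intact male RNA. Beside hypophysectomised female RNA it gave 284 in the green channel (local background 257.5) and 394 in the red (local background 325.5). Intact male RNA on the same arrays as the bright readings gave 267960 in red and 169041 in green. The readings of 65048, 267960 and 169041 are marked in the scanner files as scaled up from a scan at lower gain, while the green readings of 4940 and 284 are not. Of the 24 readings of each probe, 11 to 13 were marked so for Spin2a and 12 for Serpina3c, and the part of the scan gain in the shift was not tested. Whether light or dye from the bright partner entered the dim reading, or the pools differed, was not tested. The labels do not say which pool each array carried.

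**Figure D2:**
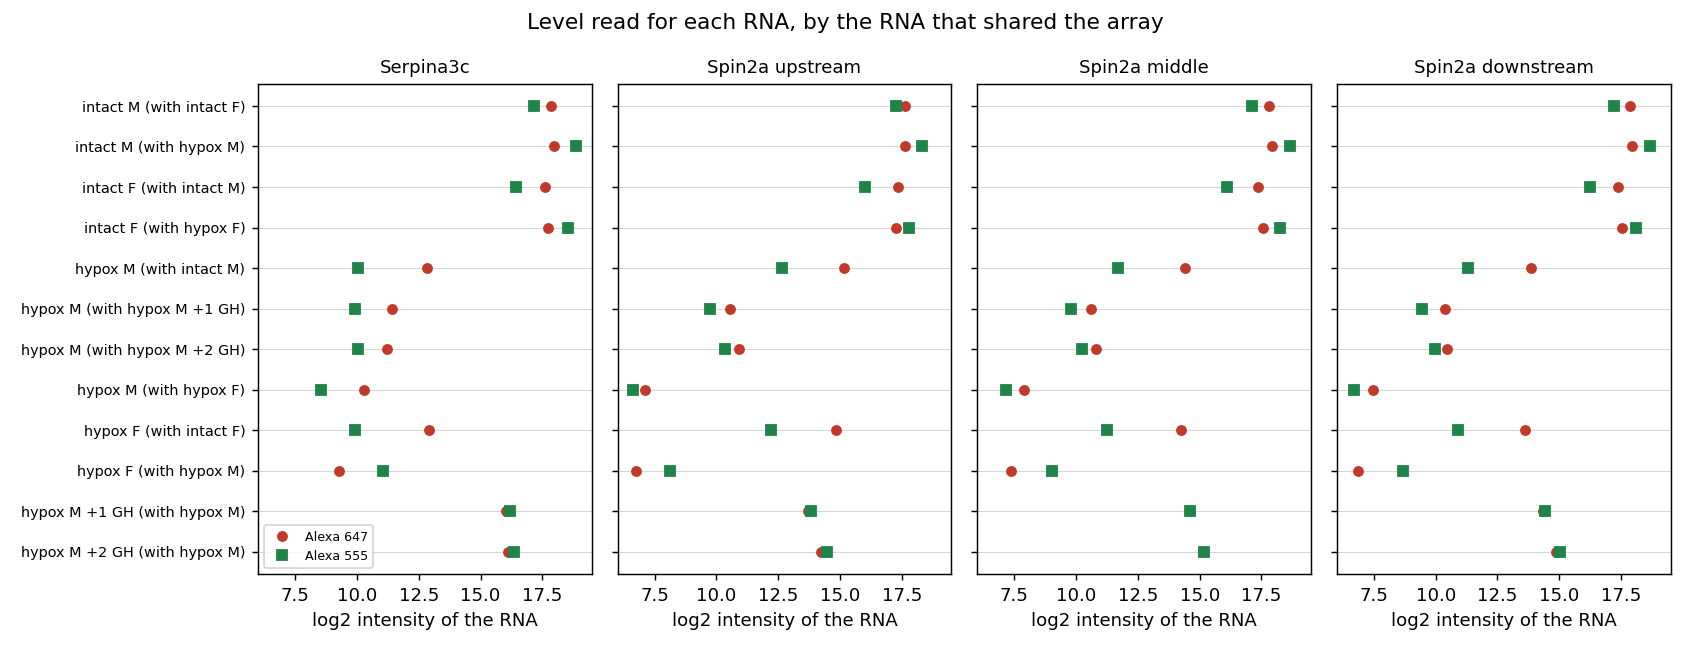
Log2 intensity of each RNA at the Serpina3c and Spin2a probes, with the RNA that shared the array in brackets. Each point is 1 array, coloured by dye. The hypophysectomised RNAs of the Spin2a probes lie between 6.63 and 9.02 beside each other and between 10.90 and 15.16 beside intact RNA, while the intact RNAs stay between 16.00 and 18.69.

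With the level of each RNA taken from the array pair on which its partner was alike (intact beside intact, hypophysectomised beside hypophysectomised), the differences were larger. In males they were -10.58, -9.93 and -10.44 for the upstream, middle and downstream Spin2a probes and -8.10 for Serpina3c. In females they were -9.25, -8.53, -9.03 and -6.84. Beside each other the hypophysectomised RNAs gave Spin2a intensities of 284 to 645 over local backgrounds of 254 to 328, so the sizes for Spin2a also depend on the background correction and its offset and are rough. These values set arrays against each other, carry no test and were added after the data were seen. They leave the direction as it was.

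**Figure D3:**
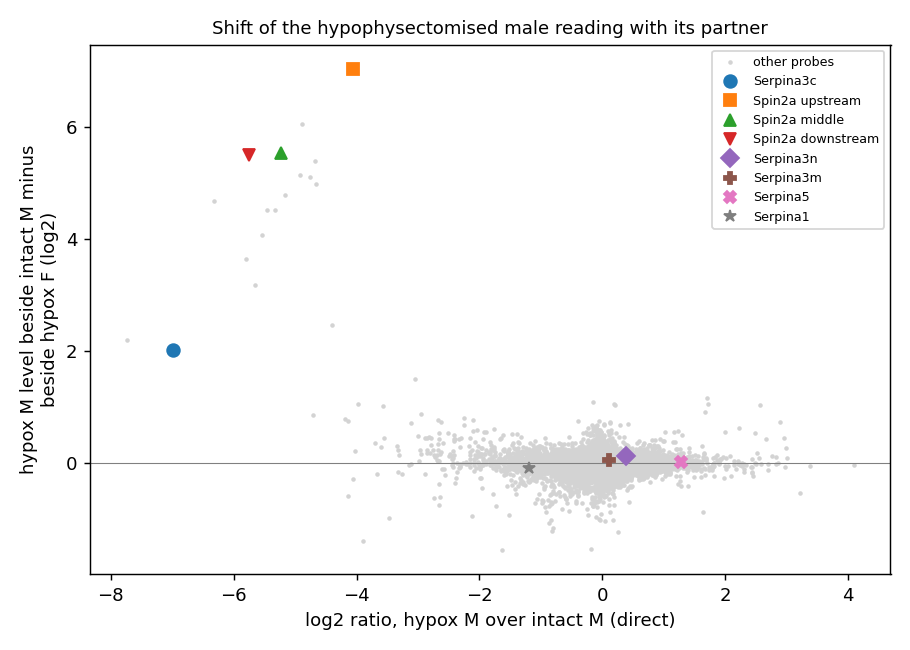
Shift of the hypophysectomised male reading with its partner (level beside intact male RNA minus level beside hypophysectomised female RNA, log2) against the direct log2 ratio of hypophysectomised to intact male RNA, for probes with both values. The Spin2a probes (shifts 5.50 to 7.04) and Serpina3c (2.02) stand above nearly all of the grey points, and the other members lie at about 0.

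GH raised both genes again in hypophysectomised males. After 1 injection Serpina3c stood at 4.78 and 6.12 on the 2 arrays (5.45 ± 0.32, a 43.7-fold rise, adjusted p = 7.85e-05). After 2 injections it stood at 5.15 and 6.10 (5.62 ± 0.32, 49.3-fold, adjusted p = 1.31e-05). The upstream, middle and downstream Spin2a probes rose by 3.60 ± 0.46, 4.40 ± 0.49 and 4.48 ± 0.48 after 1 injection and by 3.73 ± 0.46, 4.64 ± 0.49 and 4.74 ± 0.48 after 2. Both arrays were above 0 at all 4 probes, from 3.24 to 6.12. After 1 injection 4 of the 8 probes were called higher (background 7.49% of 26359) and 1 lower (background 6.79%). After 2 injections 6 were called higher (background 15.0% of 28438) and 2 lower (background 15.8%). With the brightest probe of each gene, 2 of 6 genes were higher and 1 lower after 1 injection, and 4 higher and 2 lower after 2. Without either array of the 1-injection pair, the upstream Spin2a probe was no longer called there (3.45, adjusted p = 0.0657, without the first; 3.75, adjusted p = 0.0564, without the second).

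For Serpina3c and Spin2a no difference between the 2-injection pool and the 1-injection pool was called, with wide errors. The 1-injection rats were killed at 30, 60 or 90 min, and the 2 injections were 3 or 4 h apart. The number of injections and the time since the first thus cannot be told apart. The difference between 2 and 1 injections was 0.17 ± 0.46 for Serpina3c (adjusted p = 0.877) and 0.13 ± 0.65, 0.24 ± 0.69 and 0.25 ± 0.68 for the Spin2a probes. These errors are larger than the differences themselves, so a small difference could not be seen. The upstream, middle and downstream Spin2a levels were 13.69 to 13.80, 14.59 to 14.62 and 14.36 to 14.44 after 1 injection. After 2 injections they were 14.23 to 14.47, 15.12 to 15.19 and 14.88 to 15.01. Serpina3c read 16.03 to 16.19 after 1 and 16.12 to 16.37 after 2. Each treatment was 1 pool read on 2 arrays, and these levels carry no test. With the hypophysectomised male level taken beside hypophysectomised female RNA, the rise after 1 injection was 6.71 for Serpina3c and, again as rough sizes, 6.88, 7.07 and 7.32 for the Spin2a probes, and after 2 injections 6.84 and 7.48, 7.62 and 7.86.

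How far GH brought the transcripts back to the level of intact males could be asked only through the hypophysectomised male RNA, a contrast added after the data were seen. For Serpina3c the sum of the direct ratios left it lower than in intact males by 1.54 ± 0.46 after 1 injection and by 1.37 ± 0.46 after 2, neither of them called (adjusted p = 0.0504 and 0.0571). With the deposited processed signals both were called (-1.62, adjusted p = 0.0482, and -1.43, adjusted p = 0.0462), and the first was also called without the second array of hypophysectomised against intact males (-1.86, adjusted p = 0.0456). For Spin2a the sums were -0.45 ± 0.65, -0.83 ± 0.69 and -1.26 ± 0.68 after 1 injection, none called. Another reading set the level of GH-treated RNA, always beside hypophysectomised male RNA, against that of intact male RNA beside intact female RNA. These differences were -3.70, -2.86 and -3.12 for Spin2a and -1.40 for Serpina3c after 1 injection. After 2 injections they were -3.10, -2.31, -2.57 and -1.26. The shortfall of Spin2a against intact males was thus larger in these differences than in the sums. Their 2 sides had unlike partner RNAs. Intact male RNA itself read higher beside hypophysectomised male RNA than beside intact female RNA, by 0.52, 0.83 and 0.80 for Spin2a. For Serpina3c it read 0.91 higher. The part of the partners in the shortfall was not tested.

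Serpina5 moved the opposite way. It encodes protein C inhibitor, which acts on activated protein C and other proteases of the clotting system. Hypophysectomised males exceeded intact males by 1.26 and 1.31 on the 2 arrays (1.29 ± 0.10, adjusted p = 7.08e-05), and hypophysectomised females exceeded intact females by 1.58 and 2.01 (1.80 ± 0.10, adjusted p = 1.28e-05). After 1 GH injection it fell by 1.15 ± 0.10 (arrays at -1.16 and -1.14, adjusted p = 0.000396), and after 2 injections it fell by 1.93 ± 0.10 (-1.94 and -1.92, adjusted p = 9.00e-06). The arrays of each pair were within 0.5 log2 units throughout. Its level was 12.68 to 12.98 (median 12.83) over the 8 readings of hypophysectomised males. It was 11.65 and 11.70 after 1 injection and 10.90 and 10.91 after 2, each time 1 pool read on 2 arrays. Intact males read 11.36 to 11.72 and intact females 10.51 to 11.10. The order was thus hypophysectomised males, hypophysectomised females (12.55 to 12.57), then 1 injection and intact males, which overlap, then 2 injections and intact females, which overlap as well. Set against intact males through the hypophysectomised RNA, 2 injections left Serpina5 lower by 0.65 ± 0.14 (adjusted p = 0.0119), while 1 injection gave 0.13 ± 0.14 (adjusted p = 0.555).

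Serpina3n, an inhibitor of elastase-like proteases, granzyme B among them, and a marker of acute phase responses, did not follow its neighbour Spin2a. In males its ratio of hypophysectomised to intact RNA was -0.22 and 0.99 (0.39 ± 0.14, adjusted p = 0.0594), and in females it was 0.77 and 1.79 (1.28 ± 0.14, adjusted p = 0.000321). After 1 injection the arrays stood on either side of 0, at -0.52 and 1.11 (0.30 ± 0.14, adjusted p = 0.204). After 2 injections both were above 0, at 0.64 and 2.37 (1.50 ± 0.14, adjusted p = 0.00012). The 2 arrays of each pair were 0.87 to 1.73 apart, and its dye coefficient, the part of the ratio that turns with the dyes, was called (0.64 ± 0.06, adjusted p = 0.00133). In a fit with no dye term the calls in females and after 2 injections were lost (adjusted p = 0.114 and 0.078). Its level was 17.90 and 18.07 after 2 injections, 2 readings of 1 pool, and 15.70 to 17.55 over the 8 readings of hypophysectomised males. With the hypophysectomised male level taken beside hypophysectomised female RNA, the rise after 2 injections was 0.77 in place of 1.50. The difference of that level from intact males, read beside intact females, was -0.16 in place of 0.39. These values from separate arrays carry no test.

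Serpina3m, a close relative with a role less well known, had smaller ratios than Serpina3c, Spin2a and Serpina5 in the hypophysectomy and GH comparisons. Hypophysectomised and intact males did not differ beyond the error (-0.13 and 0.34, fitted 0.10 ± 0.13, adjusted p = 0.558), and females rose by 0.75 ± 0.13 (0.61 and 0.89, adjusted p = 0.00289). After 1 injection the ratio was -0.29 ± 0.13 (adjusted p = 0.186), and after 2 it fell by 0.57 ± 0.13 (-0.42 and -0.71, adjusted p = 0.0106). Without the second array the rise in females (0.58, adjusted p = 0.0762) and the fall after 2 injections (-0.40, adjusted p = 0.22) were not called.

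Serpina1 encodes alpha-1-antitrypsin, the main plasma inhibitor of neutrophil elastase. In males it fell by 1.20 ± 0.14 (-2.12 and -0.28, adjusted p = 0.000513) without the pituitary, and in females the ratio was -0.16 ± 0.14 (-1.01 and 0.69, adjusted p = 0.423). It had 0.33 ± 0.14 after 1 injection (adjusted p = 0.172) and rose by 0.74 ± 0.14 after 2 (0.18 and 1.30, adjusted p = 0.00496). Without the first array of the 2-injection pair that rise was not called (0.54, adjusted p = 0.143). As for Serpina3n, the arrays of a pair were far apart (1.07 to 1.84) and the dye coefficient was called (0.73 ± 0.06, adjusted p = 0.000807). With no dye term the adjusted p was 0.177 for the fall in males and 0.488 for the rise after 2 injections. The dye coefficient of Serpina3c was 0.68 ± 0.13 (adjusted p = 0.0179), and those of Serpina5 (0.03 ± 0.04) and Serpina3m (0.00 ± 0.05) were not called. A called dye coefficient was found at 12.4% of all tested probes.

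**Figure D4:**
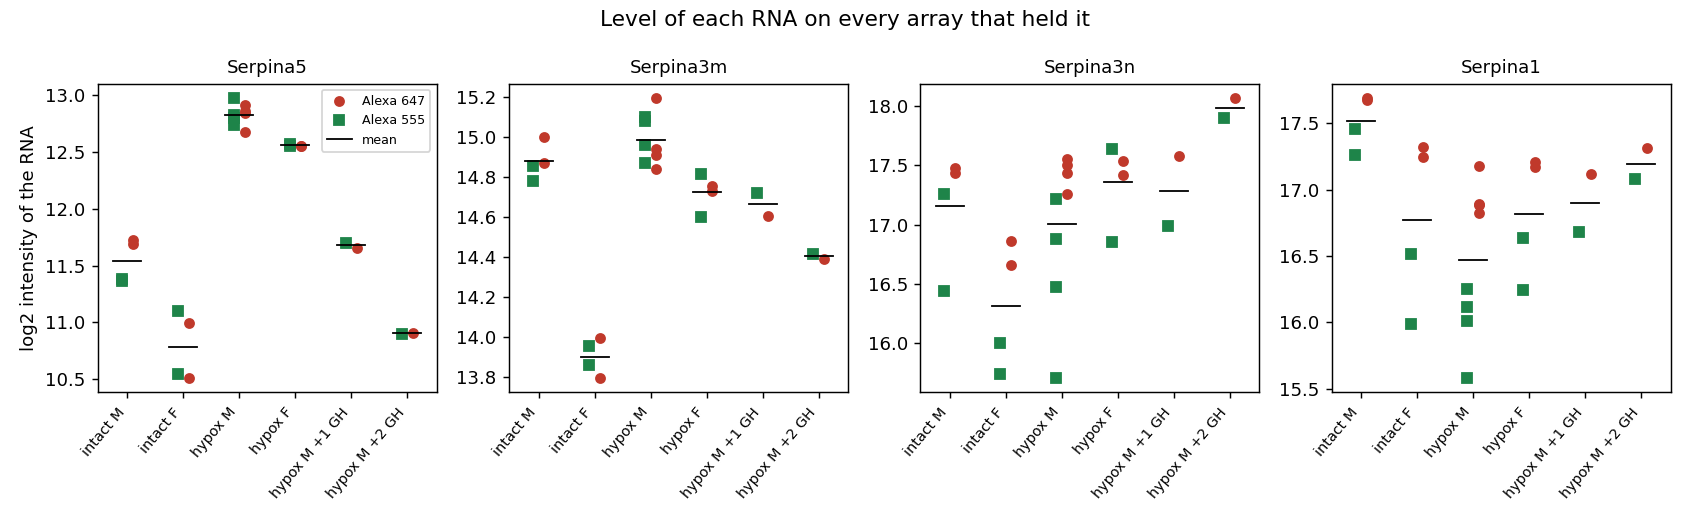
Log2 intensity of each RNA at the Serpina5, Serpina3m, Serpina3n and Serpina1 probes. Each point is 1 array, coloured by dye, and the line is the mean of the group. Serpina5 is highest in hypophysectomised males (12.68 to 12.98) and stepwise lower after 1 and 2 injections, and the dyes separate within most groups of Serpina3n and Serpina1.

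Between intact males and females, 4 of the 8 probes were called, all higher in males (background 8.07% of 25714). Serpina5 was higher by 0.73 ± 0.10 (0.59 and 0.88, adjusted p = 0.00211), Serpina3m by 0.95 ± 0.13 (0.92 and 0.99, adjusted p = 0.00178), Serpina3n by 1.04 ± 0.14 (1.48 and 0.60, adjusted p = 0.00169) and Serpina1 by 0.81 ± 0.14 (1.69 and -0.07, adjusted p = 0.00678). Serpina3c (1.40 and -0.41) and the Spin2a probes (1.62 to 1.71 and -0.21 to -0.11) had arrays on either side of 0 and were not called. Without the first array the Serpina1 call was lost (0.63, adjusted p = 0.176). Without the second, the calls of Serpina5 (0.52, adjusted p = 0.0592), Serpina3m (0.91, adjusted p = 0.0529) and Serpina3n (0.80, adjusted p = 0.058) were lost. Among pancreas markers on the same arrays, 1 of 3 tested was higher in males (Cela1, 1.74 ± 0.20) and 1 lower (Cpa1, -3.93 ± 0.80), and 4 of 5 macrophage markers were lower. Over all probes 3983 of 25714 were called in either direction. The part of these markers in the result was not tested. With no dye term the calls of Serpina3n (adjusted p = 0.323) and Serpina1 (adjusted p = 0.532) were lost.

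Between hypophysectomised males and females no member was called by limma (0 of 8, 3 with an unadjusted p under 0.05, background 0.949% of 26038). Serpina5 had 0.27 ± 0.10 (adjusted p = 0.298), Serpina1 -0.43 ± 0.14 (adjusted p = 0.241) and Serpina3c -0.77 ± 0.32 (adjusted p = 0.355).

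Whether the response to hypophysectomy differed between the sexes was tested with a contrast, males minus females, that averages the 2 ways in which the arrays measure it, and 4 of the 8 probes were called, all negative (background 7.01% of 23859). The contrast was -0.48 ± 0.10 for Serpina5 (adjusted p = 0.0171), -0.69 ± 0.13 for Serpina3m (adjusted p = 0.0102), -0.93 ± 0.14 for Serpina3n (adjusted p = 0.00383) and -1.14 ± 0.14 for Serpina1 (adjusted p = 0.0016). These are the 4 genes called higher in intact males, and since the contrast contains the comparison of the intact sexes, that is no separate evidence. For Serpina3c (-0.76 ± 0.32, adjusted p = 0.174) and Spin2a (-0.70 to -0.80, SE 0.46 to 0.49) it was not called. Without the second array of hypophysectomised males against females, Serpina3c (-1.18, adjusted p = 0.0175) and the downstream Spin2a probe (-1.42, adjusted p = 0.0378) were called and Serpina5 was not (-0.45, adjusted p = 0.0644). Serpina5 was also not called without the second array of intact males against females (-0.38, adjusted p = 0.0529).

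Between 2 and 1 injections, 1 of the 8 probes was called higher (background 5.56% of 26208) and 1 lower (background 4.82%). Serpina3n was higher after 2 injections by 1.21 ± 0.20 (adjusted p = 0.00874), and Serpina5 was lower by 0.78 ± 0.14 on the log2 scale (contrast -0.78, adjusted p = 0.0139). With no dye term the Serpina3n call was lost (adjusted p = 0.49), and neither call held through the removal of single arrays. Serpina5 lost it without any of the 4 (adjusted p from 0.0858 to 0.117), and Serpina3n lost it without the first array of the 1-injection pair (1.00, adjusted p = 0.094) or the second of the 2-injection pair (0.94, adjusted p = 0.0633). Against intact males, Serpina3n was higher by 0.68 ± 0.20 after 1 injection (adjusted p = 0.0449, 1 of 8 higher, background 10.3%) and by 1.89 ± 0.20 after 2 (adjusted p = 0.000364, 1 of 8 higher, background 14.5%). With no dye term neither was called (adjusted p = 0.628 and 0.119). Serpina1 was the probe called lower after 1 injection (-0.87 ± 0.20, adjusted p = 0.0219, background 9.12%), and Serpina5 after 2 (background 14.6%). The call of Serpina3n after 1 injection was lost without any 1 of the 4 arrays it rests on (adjusted p from 0.062 to 0.304). That of Serpina1 was lost without the first array of hypophysectomised against intact males (-0.64, adjusted p = 0.107) or the second of the 1-injection pair (-0.63, adjusted p = 0.184), and that of Serpina5 after 2 injections without either array of the 2-injection pair (-0.67, adjusted p = 0.0587, and -0.62, adjusted p = 0.0804).

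On chromosome 6 the members lie in a cluster that runs from Serpina10 to the homeobox gene Gsc over 634 kb, in the coordinates of the array files, whose build they do not name. The order is Serpina1, Serpina5, Serpina3m, Serpina3c, Spin2a and Serpina3n. Serpina5 lies 37.0 kb from Serpina3m, Serpina3c 61.7 kb from the upstream Spin2a probe, and the downstream Spin2a probe 25.6 kb from Serpina3n. The steep falls of Serpina3c and Spin2a in males thus sat between members that did not fall (Serpina3m 0.10 and Serpina3n 0.39). After 2 injections these 2 members had -0.57 and 1.50. Of 10 other cluster probes tested in hypophysectomised against intact males, 4 were called lower and 1 higher (18.5% and 19.0% over all probes). Probes without a current gene name, chosen after their values were seen, include 1 at 1.66 kb from the Serpina3c probe, which fell by 4.40 ± 0.11 in males and rose by 2.77 ± 0.11 and 3.02 ± 0.11 after 1 and 2 injections. A probe of a hypothetical gene 64.8 kb from Serpina3c fell by 4.19 ± 0.13 and rose by 1.54 ± 0.13 and 1.57 ± 0.13. A probe 1.59 kb beyond that of Serpina3n fell by 0.86 ± 0.13 in males and rose by 1.92 ± 0.13 after 1 injection and by 3.61 ± 0.13 after 2. Other unnamed probes, at 575.9, 248.7 and 18.9 kb from the Serpina10 probe, were not called in males (0.08 ± 0.12, -0.10 ± 0.09 and -0.11 ± 0.09). After 2 injections they had 0.53 ± 0.12, -0.02 ± 0.09 and -0.20 ± 0.09, with only the first called. A further probe, named only by a locus number, fell by 0.46 ± 0.07 in males and rose by 0.26 ± 0.07 after 2 injections. The Serpina3 genes are close copies, and a probe may read more than 1 of them.

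**Figure D5:**
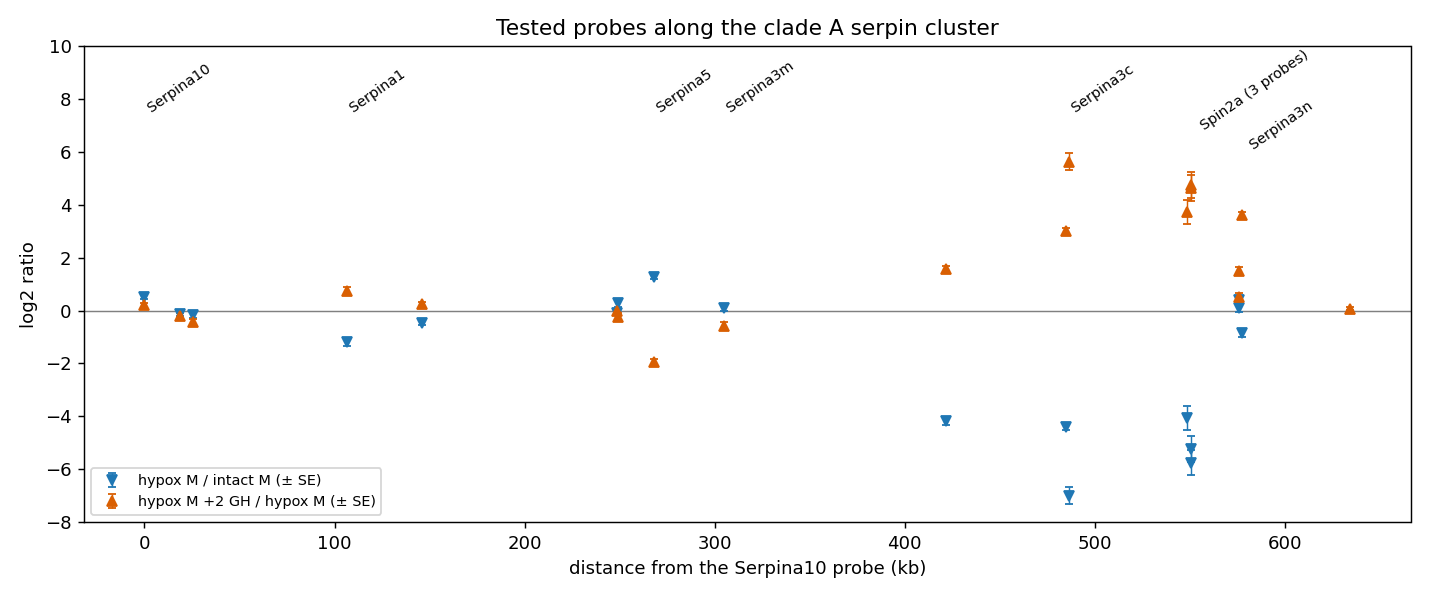
Log2 ratio ± SE of the tested probes along the clade A serpin cluster, by distance from the Serpina10 probe in kb. Triangles pointing down are hypophysectomised against intact males, and triangles pointing up are 2 GH injections against hypophysectomised males. Large changes of opposite sign fall around Serpina3c and Spin2a, and Serpina5 shows the reverse order at smaller size.

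Over the 12 array ratios, the patterns of Serpina3c and Spin2a were nearly the same up to scale (uncentred correlation 0.992, 0.996 and 0.998 for the upstream, middle and downstream probes). That of Serpina5 ran against them (-0.92), those of Serpina1 (0.61) and Serpina3m (-0.55) were looser, and that of Serpina3n bore no likeness (0.05). Among 295 candidate probes (other genes with a symbol, tested in all 6 comparisons, with a log2 ratio of at least 1 in size in both hypophysectomy comparisons), the 5 genes most like Serpina3c were the growth factor gene Igf1 (0.987), its plasma partner Igfals (0.982), the bile canalicular exporter Abcc2 (0.981), the cation transporter Slc41a2 (0.971) and the aldo-keto reductase Akr1c2 (0.959). All points share the same 12 arrays and few RNA pools, so these values are a description.

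Among 29 other serpins on the array, 18 were tested in hypophysectomised against intact males, of which 5 were higher and 3 lower, near the shares over all probes (19.0% and 18.5%), with a median of 0.05 against 0.01 over all tested probes. The members' own median, over 8 probes of which 3 read Spin2a, was -2.63, while the other serpins count 1 probe per gene. Of the members, Serpina3m (0.10), Serpina3n (0.39) and Serpina5 (1.29) did not fall in males. The largest change was that of Serpina7, the thyroxine-binding globulin gene, which rose by 2.99 ± 0.35 in males (adjusted p = 0.000484) and by 2.60 ± 0.35 in females. Serpina7 and Serpina6, which the choice of members leaves out, are named here after their values were seen. The intracellular serpins Serpinb6a (0.64 ± 0.06) and Serpinb6b (0.35 ± 0.06) and the clotting inhibitor Serpina10 (0.52 ± 0.08) rose, and Serpinb7 fell with -0.35 ± 0.06. After 2 injections 4 of 22 other serpins were higher and 5 lower (15.0% and 15.8% over all probes), with a median of -0.06. The 8 member probes, again with 3 of Spin2a, had a median of 2.62. Serpina6, the corticosteroid-binding globulin gene, rose by 0.70 ± 0.11 after 1 injection and fell by 0.43 ± 0.11 after 2, a difference of -1.14 ± 0.15 (adjusted p = 0.0039). Serpinb8 (0.82 ± 0.08) and the C1 inhibitor gene Serping1 (0.31 ± 0.05) rose, and Serpinb5 (-0.66 ± 0.06) and the heparin cofactor gene Serpind1 (-0.36 ± 0.08) fell.

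The GH signalling list held the receptor, the JAK2 to STAT5 route, its feedback inhibitors and targets. Of 18 tested genes 10 were lower and 6 higher in hypophysectomised males (18.5% and 19.0% over all probes). After 2 injections 11 of 19 were higher and 1 lower (15.0% and 15.8% over all probes), with a median of 0.35 against -0.01 over all probes. The transcription factor Onecut1 (3.64 ± 0.28), the feedback inhibitor Socs2 (3.28 ± 0.13), Igf1 (2.71 ± 0.44) and Igfals (2.13 ± 0.24) rose most. The acute phase list had 14 of 20 higher and 0 lower after 2 injections (median 0.88), with the amyloid protein Saa4 (2.38 ± 0.24), alpha-2-macroglobulin A2m (2.34 ± 0.22) and the fibrinogen chains Fga (1.80 ± 0.09) and Fgg (1.73 ± 0.16). The shares over all probes there were again 15.0% and 15.8%. After 1 injection the acute phase list had 10 of 20 higher and 0 lower (7.49% and 6.79% over all probes). In the sex contrast it had 7 of 19 negative (7.01% over all probes) and 0 positive, A2m among the negative at -1.84 ± 0.22. Of 8 tested proteases and cofactors that serpins of this clade act on, 1 rose after either GH treatment, near the background (7.49% and 15.0% over all probes). It was the granzyme gene Gzmb (0.55 ± 0.08 and 0.41 ± 0.08), which fell by 0.33 ± 0.08 in hypophysectomised males (adjusted p = 0.0129).

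Markers of other cells moved with some of these comparisons. Over all probes 19.0% were called higher and 18.5% lower in hypophysectomised males, and 17.9% and 18.5% in females. The shares were 7.49% and 6.79% after 1 injection, 15.0% and 15.8% after 2, and 5.56% and 4.82% between 2 and 1. The marker lists are short, so a count of 1 says little beside these shares. All 8 hepatocyte markers were above background in all 24 readings, and 1 of 8 was higher and 1 lower in hypophysectomised males. Bile duct markers were higher without the pituitary for 3 of 3 tested in males (median 1.82) and in females (median 1.69). Both erythroid markers fell in each sex (medians -2.88 and -1.22) and rose after 1 and 2 injections (1.74 and 1.00). Macrophage markers were higher for 5 of 5 after 1 injection (median 0.32). Between 2 and 1 injections 4 of 5 were lower (median -0.35). After 2 injections limma called 0 of 5, with 1 at an unadjusted p under 0.05 (Csf1r, -0.15 ± 0.06, adjusted p = 0.0732). Lymphocyte and neutrophil markers were higher without the pituitary for 4 of 5 tested in each sex (medians 0.49 and 0.43), and 1 of the 6 on the array was above background in no reading. With GH, 2 of 5 tested were higher and 0 lower after either treatment (medians 0.26 and 0.16). These were the neutrophil genes S100a8 and S100a9, by 0.77 ± 0.13 and 0.89 ± 0.17 after 1 injection and by 1.41 ± 0.13 and 1.32 ± 0.17 after 2. Cd3e, Cd79b and Ptprc were called after neither (0.02, -0.13 and 0.16 after 2 injections). Endothelial markers were higher for 3 of 5 in males and 3 of 4 in females, and stellate cell markers for 1 of 3 in males. In females without the pituitary the pancreas marker Cpa1 fell (-4.15 ± 0.80) and Cela1 rose (1.18 ± 0.20). Their part in the serpin ratios was not tested.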

How the data were processed

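Liver RNA pools were compared on 12 2-colour oligonucleotide arrays. The deposited scanner files hold spot intensity values and flags made with Feature Extraction 9.1.3.1, per the file headers. The authors' deposited value table holds log2 ratios, and 100% of its values lay within 0.02 of the ratio of the deposited processed signals. From the mean and local background intensities, ratios were computed with limma 3.58.1 (R 4.3.3): normexp background correction (offset 50), loess within each array, control spots at weight 0 (1639 of 45018 spots), outlier spots left out, spots averaged per probe, and ratios turned by the dyes in the labels. A single fit over all 12 arrays had the 6 comparisons and a dye term (5 residual degrees of freedom). A probe was tested where at least 1 RNA was well above background on both arrays, and p-values were adjusted over all tested probes. Levels of a single RNA are log2 intensities after loess and quantile scaling of the average intensity. No spot was saturated, and 58.4% to 71.1% of spots were well above background; the number of arrays limits the precision. Arrays lay on 3 slides, with all GH arrays on 1 slide. The label of 1 single-injection array leaves out GH, and its title was used.

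The script was tested on simulated data. The members and gene lists were chosen with earlier results of these data known. The rule named all members, up to 4 called genes with the largest change per list and comparison (other serpins, GH signalling, acute phase, target proteases), and left Serpina6 and Serpina7 to the counts; both are named nonetheless, after their values were seen. It also named the 5 genes most like Serpina3c. The contrasts of GH-treated against intact males and the levels from separate arrays were added after the data were seen. Promoters were aligned with Biopython 1.88. Alternatives were other background corrections, normalizations, filters, fits, a slide block, a replicate block and the removal of each array.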

Additional observations from a re-analysis of the deposited data

Results flagged for a closer look

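In 4 genes the response to hypophysectomy differed between the sexes by a test of the difference itself (males minus females, limma, adjusted over all tested probes). The contrast was -1.14 for Serpina1, -0.93 for Serpina3n, -0.69 for Serpina3m and -0.48 for Serpina5. Dye coefficients were called for Serpina1 and Serpina3n and not for Serpina5 and Serpina3m, and with no dye term the contrasts of Serpina1 and Serpina3n were not called (adjusted p = 0.344 and 0.395). Both erythroid markers also had a negative contrast (median -1.77), and their part in these values was not tested.

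In 2 genes the response to 2 injections differed from that to 1, by the contrast of both responses. It was 1.21 for Serpina3n and -0.78 for Serpina5. With no dye term Serpina3n was not called (adjusted p = 0.49). The 1-injection and 2-injection RNAs were 1 pool each, so a difference between pools of animals and a difference between treatments cannot be told apart. The time since the first injection differed as well, and it cannot be told apart from the number of injections.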

How the results depend on the processing

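The number of member probes called was most affected by the normalization. With median centring in place of loess it fell to 0 for males against females (4 in the reported fit), 3 for hypophysectomy in males (6), 4 in females (7), 0 after 1 injection (5), 1 after 2 injections (8), 0 for the sex contrast (4), 0 for 2 against 1 injections (2) and 0 for either GH treatment against intact males (2 each). Calls over all probes fell as well, from 3983 to 261 for males against females, 9737 to 345 and 8836 to 370 for hypophysectomy in males and females, and 3764 to 0 and 8773 to 75 after 1 and 2 injections. With no dye term the counts were 2 for males against females (2600 over all probes), 5 and 6 for hypophysectomy in males and females, 6 after 2 injections, 2 for the sex contrast, 1 for 2 against 1 injections, and 0 and 1 for 1 and 2 injections against intact males. With the arrays of each comparison alone and no dye term they were 3 for males against females, 5 for hypophysectomy in males, 6 after 2 injections, 1 for the sex contrast, 0 for 2 against 1 injections, and 0 and 1 against intact males. For 1 injection against intact males, 1 probe was called with no background correction and 1 with no filter.

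Without single arrays the counts ranged from 1 to 3 for males against females, 6 to 6 and 6 to 7 for hypophysectomy in males and females, 0 to 0 between the hypophysectomised sexes, 4 to 4 and 7 to 7 after 1 and 2 injections, 3 to 5 for the sex contrast, 0 to 1 for 2 against 1 injections, and 0 to 2 and 1 to 3 for 1 and 2 injections against intact males. With the replicate number as a block the counts equalled those reported (4, 6, 7, 0, 5, 8, 4, 2, 2 and 2). Outside the GH arrays the replicate number goes with the slide (all first arrays on slide 2, all second arrays on slide 3), and with slide as a block the counts were again those reported. Across all 6 comparisons the deviations of the first arrays correlated between -0.69 and 0.91 over 15 pairs and exceeded 0.1 in 6. The first arrays differ in dye orientation, and the dye effect was not taken out. These correlations thus cannot show whether the numbers pair the samples. Of the single ratios under the alternatives, 980 kept direction and side of the threshold, 85 lost the call, 9 gained one, 14 moved beyond the spread and none reversed. The cause of these losses was not tested.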

Other observations

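Between intact males and females, 2 of 18 tested genes of the GH list were higher in males and 3 lower. Over all probes 8.07% were called higher, and 3983 of 25714 were called in either direction. The repressor Bcl6 was 3.95 ± 0.24 and the feedback inhibitor Cish 1.91 ± 0.08 higher in males, and Onecut1 was lower (-2.66 ± 0.28), as was the binding protein Igfbp1 (-1.56 ± 0.20). Among other serpins the largest called ratio was that of Serpina6 (-0.82 ± 0.11, lower in males, named after its value was seen). Serpina4, the kallistatin gene, was higher in males (0.66 ± 0.15) and the collagen chaperone Serpinh1 lower (-0.52 ± 0.09).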
